A study of Mus musculus with 10 samples.

Results

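The insulin, PI3K and mTOR pathway was described here through 31 genes, chosen by gene symbol from 17919 genes in the tables. All 31 had a row in each of 6 libraries: 4 of RNA-seq and 2 of polysome-seq, in which ribosome-bound RNA is sequenced. Neural stem cells had been taken from ICR mouse embryos, from the ventral midbrain at embryonic day 10. They were transduced with a Lin28a lentivirus or with the mock control, were passaged every 4 days in culture and were sampled at passage 3 (P3) and passage 1 (P1). The groups were Lin28a at P3, Lin28a at P1, control at P3 and control at P1 for RNA-seq and small RNA, and Lin28a and control at P3 for polysome-seq. Each group was 1 library, so no test was possible and each difference below describes these libraries. The promoter of the lentivirus, the number of embryos and whether both assays used the same cells are not stated in the labels.

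Insulin and the insulin-like growth factors bind the receptors Insr and Igf1r, which phosphorylate the Irs adaptor proteins. These recruit PI3K, whose lipid product lets Pdpk1 and mTOR complex 2 activate the AKT kinases. AKT holds back the TSC complex, the FOXO factors and the GSK3 kinases, and the GTPase Rheb, once freed from TSC, turns on mTOR complex 1. That complex phosphorylates the S6 kinases and the 4E-BP repressors and so raises protein synthesis. Much of this control acts on proteins, and RNA levels do not show it. The RNA-binding protein Lin28a blocks the maturation of let-7 microRNAs, and several genes of this pathway are known let-7 targets.

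Levels are FPKM for RNA-seq and RPKM for polysome-seq, both scaled to gene length. Ratios are log2 values after a pseudocount of 1 was added to each level, which understates changes of low genes. A gene entered a comparison when it reached 1 in at least 1 of the 2 libraries, and a gene past 2-fold on that scale was counted as higher or lower. The Lin28a transcript followed the labels, with 104 FPKM in Lin28a at P3 and 478 at P1, against 0.0620 in control at P3 and 0.128 at P1. Total depth is unknown. Steps between low values gave rough estimates of 1.01 to 1.16 times the depth of P1 control for the other RNA-seq libraries. The polysome Lin28a library was put at 1.04 times its control. Each estimate is the most common ratio among low genes, and few genes gave it. In RNA-seq these were 61 of 692 in Lin28a at P3 and 117 of 974 at P1, and 31 of 666 in control at P3. All 10 neural stem and progenitor markers, among them Sox2 and Nes, reached 1 in each of the 6 libraries. Neuronal and glial markers were present as well.

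Most of the pathway was expressed at a middling level. In RNA-seq 28 members reached 1 FPKM in Lin28a at P3 and 29 at P1, against 28 in control at P3 and 30 at P1. The median member stood at 12.9 FPKM in Lin28a at P3 and 14.9 at P1, against 11.1 in control at P3 and 16.1 at P1. Among all genes at 1 FPKM or more the median lay between 12.9 and 13.2. The AKT kinase gene Akt1 was the most abundant member in 5 of the 6 libraries, and Rheb, at 80.9 FPKM, passed it in control at P3. The same 10 genes led all 4 RNA-seq libraries. Beside Akt1 and Rheb these were Akt1s1, which encodes the mTOR complex 1 inhibitor PRAS40, and Eif4ebp2, Gsk3a, Gsk3b, Akt2, Pik3r1, Pik3r2 and Pik3r3, in an order that differed between libraries. The lowest members were Deptor, an inhibitor of both mTOR complexes, the growth factor gene Igf1 and the adaptor gene Irs4. Deptor lay between 0.128 and 0.278 FPKM in RNA-seq, at 0.513 RPKM in Lin28a polysomes and at 0.632 in control polysomes, and so entered no comparison.

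**Figure D1:**
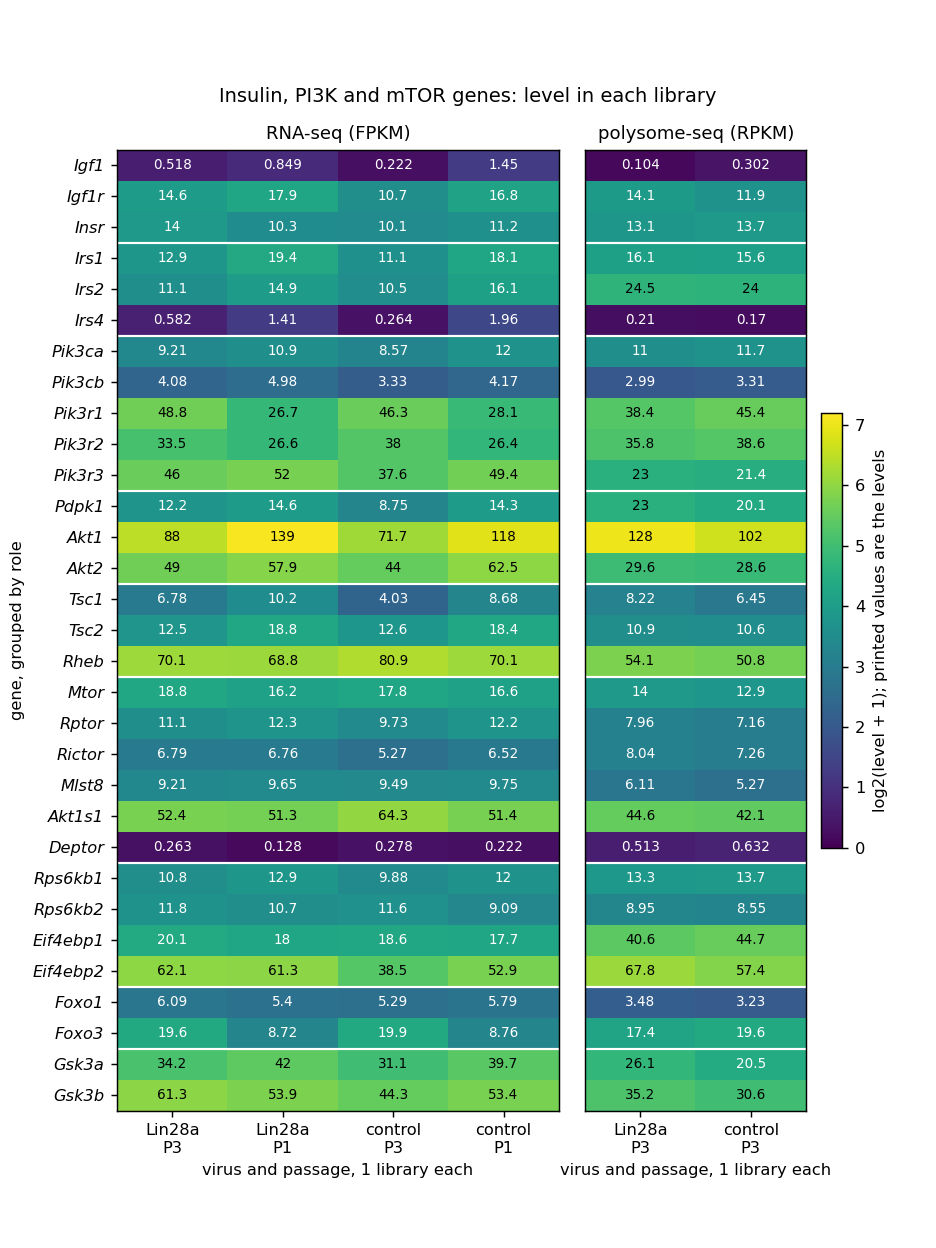
Level of each of the 31 genes in every library, as FPKM in 4 RNA-seq libraries (left) and RPKM in 2 polysome libraries (right), with colour on the log2(level + 1) scale and white lines between roles. Akt1, Rheb and Akt1s1 are among the brightest rows, and Igf1, Irs4 and Deptor are dark throughout.

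From P1 to P3 the control culture had lower receptors, adaptors and upstream kinases, and higher Foxo3, Pik3r1 and Pik3r2. Of 30 members measured, 22 were lower by any amount, with a median log2 ratio of -0.28, where all 13011 genes had a median of -0.00 and 50.3% of them were lower. Past 2-fold, 1 member was higher, Foxo3, and 2 were lower, Irs4 and Igf1. The background of all genes was 11.5% higher and 8.14% lower, so 3.33% and 6.67% of the members were below it. Past 1.5-fold, 2 members were higher, against 22.6% of all genes, and 7 were lower, 23.3% of the members, against 19.8% of all genes. The displacement was thus a small shared one and the share of large ratios was not high. The Lin28a culture had 16 of 29 members lower, or 55.2%, near the 51.0% of all genes (median -0.14, all genes -0.01). Igf1, under 1 FPKM in both libraries, was not measured there. In that culture 1 member, Foxo3, was higher past 2-fold, against 8.38% of all genes, and 0 were lower, against 4.80%. Past 1.5-fold there, 2 were higher and 2 lower, against 18.2% and 14.8%.

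The growth factor and its receptors came first in the pathway. Igf1 (NM_184052) was at 0.518 FPKM in Lin28a at P3 and 0.849 at P1, against 0.222 in control at P3 and 1.45 at P1. Its control ratio of -1.002 lay at the 2-fold line, and setting the median of all genes to 0 brought it within 2-fold. Igf1r (NM_010513), the receptor for insulin-like growth factors, was at 14.6 FPKM in Lin28a at P3 and 17.9 at P1, against 10.7 in control at P3 and 16.8 at P1. It was lower at P3 in both cultures, with a ratio of -0.27 in Lin28a and -0.60 in control. Insr (NM_010568), the insulin receptor, was at 14.0 FPKM in Lin28a at P3 and 10.3 at P1, against 10.1 in control at P3 and 11.2 at P1. Its P3 Lin28a library was the high one and the other 3 lay close together. Insr made up 48.9% of the summed receptor FPKM in Lin28a at P3 and 36.4% at P1, against 48.6% in control at P3 and 40.1% at P1.

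All 3 genes of the receptor substrates, the adaptors that carry the signal to PI3K, were lower at P3 in both cultures. Irs1 (NM_010570) was at 12.9 FPKM in Lin28a at P3 and 19.4 at P1, against 11.1 in control at P3 and 18.1 at P1, with ratios of -0.55 and -0.65. Irs2 (NM_001081212) was at 11.1 FPKM in Lin28a at P3 and 14.9 at P1, against 10.5 in control at P3 and 16.1 at P1, with ratios of -0.40 and -0.57. Irs4 (NM_010572) was far lower throughout. It was at 0.582 FPKM in Lin28a at P3 and 1.41 at P1, against 0.264 in control at P3 and 1.96 at P1, with ratios of -0.61 and -1.23. For each adaptor both P3 libraries lay below both P1 libraries.

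The regions before the starts of these 3 genes share a pair of short motifs, and they are shown for that reason. Upstream windows of 250 bases came from RefSeq on build GRCm38.p6, with 27 of 31 members matched and Insr, Deptor, Rps6kb2 and Eif4ebp1 without a window. Capitals mark the E-box CACGTG and the core of the insulin response element, TGTTTTG, both searched on both strands. The stretches run 5′ to 3′ on the minus strand, at chr1:82291514-82291584 for Irs1, chr8:11008930-11009003 for Irs2 and chrX:141725328-141725401 for Irs4.
Irs1: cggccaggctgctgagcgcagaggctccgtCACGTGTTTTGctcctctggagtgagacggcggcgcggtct
Irs2: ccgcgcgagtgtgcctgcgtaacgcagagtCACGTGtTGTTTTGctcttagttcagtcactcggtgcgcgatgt
Irs4: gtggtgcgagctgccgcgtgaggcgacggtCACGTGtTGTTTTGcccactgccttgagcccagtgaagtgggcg
In Irs2 and Irs4 the starts of the motifs are 7 bases apart. In Irs1 they are 4 bases apart and share 2 bases. Irs1 holds the core once more, nearer to its start. The E-box was present in 6.02% of the 32851 windows searched, which do not cover every chromosome, and the core in 5.56%. Median GC content was 61.6% in the member windows and 52.4% in all windows searched, and the shares are not adjusted for it. The E-box followed by the core on the same strand, with starts at most 12 bases apart, was found in 7 windows or 0.0213%. Of these, 3 were Irs1, Irs2 and Irs4. Windows with the core first, or with the core on the other strand, were not counted, so the share of windows with both motifs this close may be higher. The others included Klf11, Pcbp1 and Pyroxd1, whose passage ratios were -0.04, -0.47 and -0.27 in Lin28a and -0.41, -0.23 and -0.15 in control. The letters and the spacing were chosen after the Irs4 window had been read, and a match is a description of the sequence only. A further motif, the forkhead site TGTTTAC bound by FOXO proteins, was in 3.17% of all windows and, among members, in that of Akt1 alone.

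Genes of PI3K, the lipid kinase, moved apart by subunit. Pik3r1 (NM_001077495), which encodes the regulatory subunit p85 alpha, was at 48.8 FPKM in Lin28a at P3 and 26.7 at P1, against 46.3 in control at P3 and 28.1 at P1. Its ratios of 0.85 in Lin28a and 0.70 in control were the second highest of the members in each culture. Pik3r2 (NM_008841), the p85 beta gene, was at 33.5 FPKM in Lin28a at P3 and 26.6 at P1, against 38.0 in control at P3 and 26.4 at P1. The third regulatory gene, Pik3r3 (p55 gamma), was lower at P3, with 46.0 FPKM in Lin28a at P3 and 52.0 at P1, against 37.6 in control at P3 and 49.4 at P1. Pik3r3 thus held 35.9% of the summed regulatory FPKM in Lin28a at P3 and 49.4% at P1, against 30.9% in control at P3 and 47.6% at P1. The catalytic gene Pik3ca (p110 alpha) was at 9.21 FPKM in Lin28a at P3 and 10.9 at P1, against 8.57 in control at P3 and 11.996 at P1. Its relative Pik3cb (p110 beta) was at 4.08 FPKM in Lin28a at P3 and 4.98 at P1, against 3.33 in control at P3 and 4.17 at P1. Both were lower at P3 in both cultures, with ratios between -0.44 and -0.22.

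The kinases downstream of PI3K were lower at P3. Akt1 (NM_009652) was at 88.0 FPKM in Lin28a at P3 and 139 at P1, against 71.7 in control at P3 and 118 at P1. Its ratios were -0.66 in Lin28a, the lowest of the members there, and -0.71 in control. Akt2 (NM_007434), the isoform best known from insulin-driven glucose uptake, was at 49.0 FPKM in Lin28a at P3 and 57.9 at P1, against 44.0 in control at P3 and 62.5 at P1. Pdpk1, the kinase that activates AKT, was at 12.2 FPKM in Lin28a at P3 and 14.6 at P1, against 8.75 in control at P3 and 14.3 at P1. All 3 were lower at P3 in both cultures, each by less than 2-fold.

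Tsc1 and Tsc2, genes of the TSC complex that restrains mTOR complex 1, were lower as well. This did not extend to every gene that restrains it. Tbc1d7, from the list of mTOR and TSC partners, had ratios of -0.08 in Lin28a and 0.22 in control. Ddit4 and Sesn1, described below, were higher at P3 in both cultures. Tsc1 (NM_022887), which stabilizes the TSC complex, was at 6.78 FPKM in Lin28a at P3 and 10.2 at P1, against 4.03 in control at P3 and 8.68 at P1. The P3 control library was the lowest, and its ratio of -0.95 compares with -0.53 in Lin28a. Tsc2 (NM_001039363), the subunit that acts on Rheb, was at 12.5 FPKM in Lin28a at P3 and 18.8 at P1, against 12.6 in control at P3 and 18.4 at P1. Rheb itself was at 70.1 FPKM in Lin28a at P3 and 68.8 at P1, against 80.9 in control at P3 and 70.1 at P1. The mTOR complex genes had small ratios, within the middle 50% of all genes in each culture. Those of Pik3cb, and of Akt2 and Pdpk1 in Lin28a, were of similar size. Rptor was lower at P3 in both cultures (-0.14 in Lin28a, -0.30 in control). Mtor, the kinase, Rptor and Rictor, which define complexes 1 and 2, Mlst8, a subunit of both, and Akt1s1 had ratios between -0.14 and 0.20 in Lin28a and between -0.30 and 0.32 in control. Mlst8 was at 9.21 FPKM in Lin28a at P3 and 9.65 at P1, against 9.49 in control at P3 and 9.75 at P1, so that all 4 libraries were alike. Akt1s1 was at 52.4 FPKM in Lin28a at P3 and 51.3 at P1, against 64.3 in control at P3 and 51.4 at P1. The P3 control library was its high one.

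Among the members that are targets of the pathway, Foxo3 had the highest passage ratios. Foxo3 (NM_019740), a transcription factor that AKT keeps out of the nucleus, was at 19.6 FPKM in Lin28a at P3 and 8.72 at P1, against 19.9 in control at P3 and 8.76 at P1. The P3 libraries were alike and both were more than 2-fold above P1 (1.08 in Lin28a, 1.10 in control). These ratios lay at percentiles 92.6 and 90.2 of all genes. The rise was not particular to Foxo3. Foxo4, a FOXO gene outside the members, had similar levels, with ratios of 1.07 in Lin28a and 0.88 in control. It was at 19.4 FPKM in Lin28a at P3 and 8.75 at P1, against 19.7 in control at P3 and 10.3 at P1. The member Foxo1 changed by little (0.15 and -0.11). Of the sum of Foxo1 and Foxo3 alone, Foxo3 made up 76.3% in Lin28a at P3 and 61.7% at P1. In control it made up 79.0% at P3 and 60.2% at P1. The translation repressor gene Eif4ebp2 (NM_010124) was at 62.1 FPKM in Lin28a at P3 and 61.3 at P1, against 38.5 in control at P3 and 52.9 at P1. Here the P3 control library alone was low. Eif4ebp1, Rps6kb1, Rps6kb2, Gsk3a and Gsk3b, which encode the other 4E-BP, the S6 kinases and the GSK3 kinases, lay between -0.29 and 0.18 in Lin28a and between -0.34 and 0.32 in control. Gsk3b was at 61.3 FPKM in Lin28a at P3 and 53.9 at P1, against 44.3 in control at P3 and 53.4 at P1. Gsk3a was at 34.2 FPKM in Lin28a at P3 and 42.0 at P1, against 31.1 in control at P3 and 39.7 at P1. The first was highest in Lin28a at P3 and the second was lower at P3 in both cultures. Eif4ebp1 was at 20.1 FPKM in Lin28a at P3 and 18.0 at P1, against 18.6 in control at P3 and 17.7 at P1, a narrow range.

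**Figure D2:**
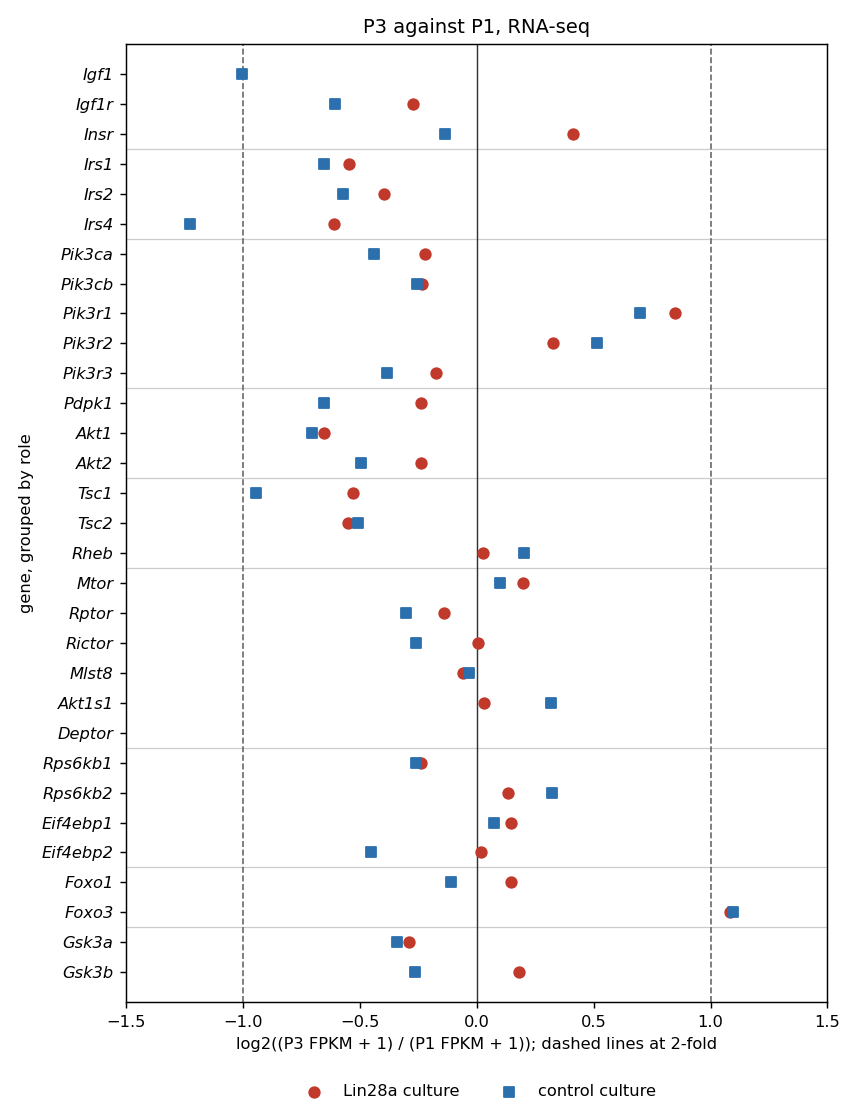
Log2 ratio of P3 to P1 for each member in RNA-seq, with circles for the Lin28a culture and squares for the control culture. Foxo3 lies past the upper 2-fold line in both cultures, Irs4 and Igf1 reach the lower line in control, and Deptor is not measured.

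Cell type markers differed with passage in the same libraries. The 8 neuronal markers summed to 389 FPKM in Lin28a at P3 and 774 at P1, against 197 in control at P3 and 883 at P1, with all 8 lower at P3 in both cultures. The 6 astrocyte markers summed to 726 FPKM in Lin28a at P3 and 208 at P1, against 1178 in control at P3 and 271 at P1. The 8 markers of the oligodendrocyte lineage summed to 947 FPKM in Lin28a at P3 and 102 at P1, against 1574 in control at P3 and 170 at P1. The 6 mesenchymal markers summed to 33.6 FPKM in Lin28a at P3 and 50.3 at P1, against 27.8 in control at P3 and 60.2 at P1. The 5 floor plate markers summed to 32.7 FPKM in Lin28a at P3 and 112 at P1, against 10.6 in control at P3 and 120.1 at P1. Thus neuronal and floor plate markers were lower and glial markers higher at P3. The 10 neural stem and progenitor markers summed to 4281 FPKM in Lin28a at P3 and 3223 at P1. In control they summed to 6192 FPKM at P3 and 3539 at P1. They were mixed, with 6 higher and 4 lower at P3 in each culture. Of 7 microglial markers at most 1, Cd68, reached 1 FPKM in a library, and their sum was at most 1.86 FPKM. Of 5 endothelial markers Kdr alone reached 1. Fewer cells of a type and less RNA per cell cannot be told apart in such libraries, and the part of cell composition in the ratios above was not tested.

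Other genes of the pathway, 108 in 8 lists, are given by their counts past 2-fold with passage. In Lin28a 13 of 101 measured, or 12.9%, were higher and 1, or 0.990%, was lower, against 8.38% and 4.80% of all genes. In control 17 of 103, or 16.5%, were higher and 3, or 2.91%, were lower, against 11.5% and 8.14% of all genes. Of these, 12 higher and 1 lower were common to both cultures. The same shares of all genes apply to the passage counts of each list that follows. Their medians were 0.12 in Lin28a and 0.16 in control. The genes that dampen the pathway gave several of the large ratios. Ddit4 (REDD1), a stress-induced inhibitor of mTOR complex 1, was at 318 FPKM in Lin28a at P3 and 44.9 at P1, against 457 in control at P3 and 56.6 at P1. Sesn1, a sestrin that acts on the same complex, had ratios of 1.56 in Lin28a and 1.78 in control. These were the 2 of 12 genes of stress inputs past 2-fold, with none lower in either culture. Pik3ip1, an inhibitor of PI3K, was at 53.0 FPKM in Lin28a at P3 and 9.003 at P1, against 45.5 in control at P3 and 7.99 at P1. It was the 1 gene past 2-fold among the PI3K and lipid phosphatase genes, of which 11 were measured in Lin28a and 12 in control. For each of these genes both P3 libraries lay above both P1 libraries.

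Known FOXO targets, kinases related to AKT and binding proteins added to this group. Pdk4, which limits pyruvate use, was at 13.8 FPKM in Lin28a at P3 and 0.826 at P1, against 15.7 in control at P3 and 0.616 at P1. Fbxo32, a ubiquitin ligase known from muscle wasting, had ratios of 1.89 in Lin28a and 1.81 in control. They were the 2 of 11 FOXO targets higher past 2-fold in Lin28a. In control Bcl2l11 (1.38) was higher too, and Cited2 was lower (-1.40). Sgk1, a kinase related to AKT, was at 38.4 FPKM in Lin28a at P3 and 8.40 at P1, against 44.0 in control at P3 and 7.47 at P1. Its list of 10 measured genes had 2 higher and 0 lower in Lin28a, with Foxo4 at 1.07, and 2 higher and 1 lower in control, with Sgk3 at 1.22 and Trib3 at -1.02. The list of IGF ligands and binding proteins, which also holds adaptor genes, had 5 of 12 genes higher and 1 lower in Lin28a. In control 6 of 13 were higher and 1 was lower. Those higher included the adaptor gene Gab1, at 1.31 in Lin28a and 1.33 in control. Igfbp5 was at 2.12 in Lin28a and 1.73 in control and Igfbp4 at 1.36 and 2.09, while Igfbpl1 was at -2.08 and -3.02.

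The remaining lists held few large ratios. Of 21 genes of the amino acid arm of mTOR complex 1 none passed 2-fold in Lin28a, and Lamtor4 (1.17), a lysosomal scaffold subunit, was higher in control. Of 8 partners of the mTOR and TSC complexes none passed it in Lin28a, and Prr5l (1.16) was higher in control. Among 16 outputs of mTOR complex 1 the lysosomal regulator Tfeb alone was past 2-fold, at 1.52 in Lin28a and 1.61 in control.

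**Figure D3:**
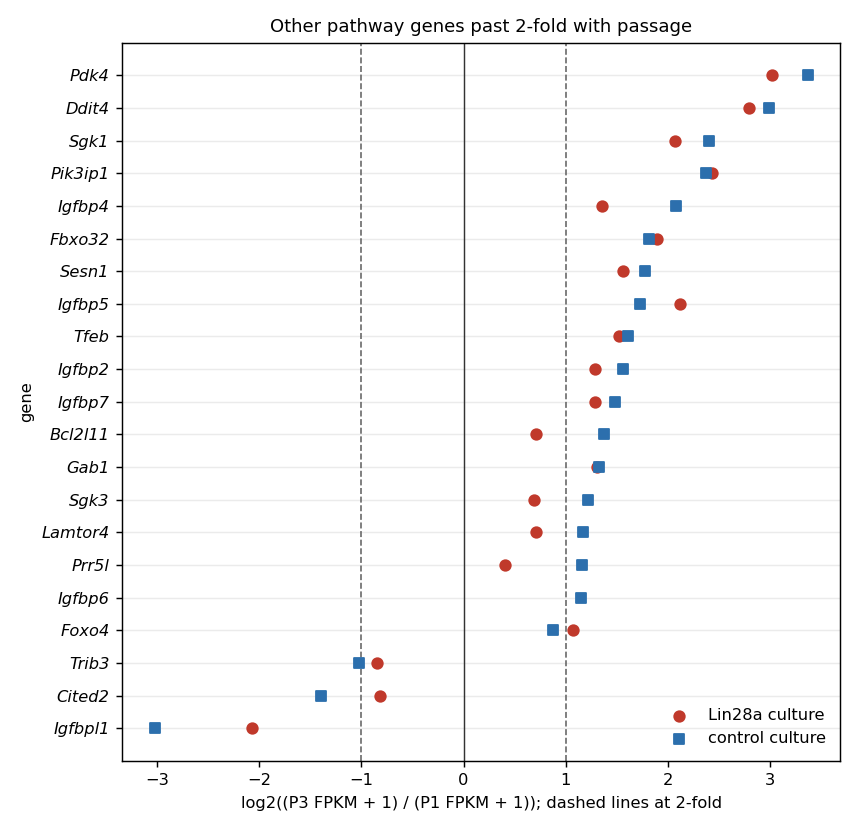
Log2 ratio of P3 to P1 for the 21 genes of the 8 other pathway lists past 2-fold in either culture, with circles for Lin28a and squares for control. Pdk4, Ddit4, Sgk1 and Pik3ip1 lie past 2 on this scale in both cultures, and Igfbpl1 lies below -2.

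At P1 the Lin28a culture was close to control across the pathway. Of 30 members measured none was past 2-fold, against 0.135% of all genes higher and 0.0955% lower, and none was past 1.5-fold, against 0.613% higher and 0.963% lower. The median member ratio was 0.01 and that of all 12564 genes -0.01. The highest were Akt1 (0.24), with Tsc1 and Pik3cb at 0.21 each, and the lowest were Igf1 (-0.40), Irs4 (-0.29) and Pik3ca (-0.13). Igf1 and Irs4 lay under 2 FPKM in both libraries.

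At P3 more of the pathway was higher in Lin28a than in control. Of 28 members measured 22 were higher by any amount, with a median of 0.14, where 48.5% of 12716 genes were higher and their median was -0.01. None was past 2-fold, against 1.31% of all genes higher and 1.34% lower. Past 1.5-fold, 2 members or 7.14% were higher and none was lower, against 5.45% and 6.35% of all genes. The 2 were Eif4ebp2, at 62.1 FPKM in Lin28a and 38.5 in control (0.68), and Tsc1, at 6.78 FPKM in Lin28a and 4.03 in control (0.63). They lay at percentiles 96.2 and 95.4 of all genes. Gsk3b followed at 0.46, with 61.3 FPKM in Lin28a and 44.3 in control, then Pdpk1 (0.44), Insr (0.43) and Igf1r (0.42). The lowest were Akt1s1 (-0.29), Rheb (-0.20) and Pik3r2 (-0.18). Foxo3, Mlst8, Rps6kb2 and Tsc2 lay between -0.04 and 0.02. In these P3 libraries the summed neuronal, floor plate, astrocyte and oligodendrocyte markers differed too, with the values given above, and their part in the ratios was not tested.

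The difference between the passage ratios of the 2 cultures is the same quantity as the difference between the Lin28a ratios at P3 and P1. It was above 0 for 22 of 29 members, or 75.9%, against 49.8% of 12723 genes, with a median of 0.15, against -0.00 for all genes. The largest differences were those of Irs4 (0.61), Insr (0.55), Eif4ebp2 (0.47), Gsk3b (0.44), and Tsc1 and Pdpk1 (0.42 each). The lowest was that of Akt1s1 (-0.29). The comparisons at P3 and with passage share the P3 libraries, so their ratios are not independent of each other. Irs4 was under 2 FPKM in all 4 libraries.

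Of 101 measured genes of the 8 other lists, 3 were higher past 2-fold at P3 and 1 was lower, or 2.97% and 0.990%, against 1.31% and 1.34% of all genes. Igf2 was at 7.29 FPKM in Lin28a and 1.87 in control (1.53). Grb10, an adaptor that restrains the insulin receptor, was at 129 FPKM in Lin28a and 61.2 in control (1.07). Igfbpl1 was higher (1.04) and Igfbp3 lower (-1.56), so 3 of 13 genes of the list of IGF ligands and binding proteins were higher and 1 lower. The other 7 lists had none past 2-fold. At P1 none of the 8 lists had a gene past 2-fold.

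**Figure D4:**
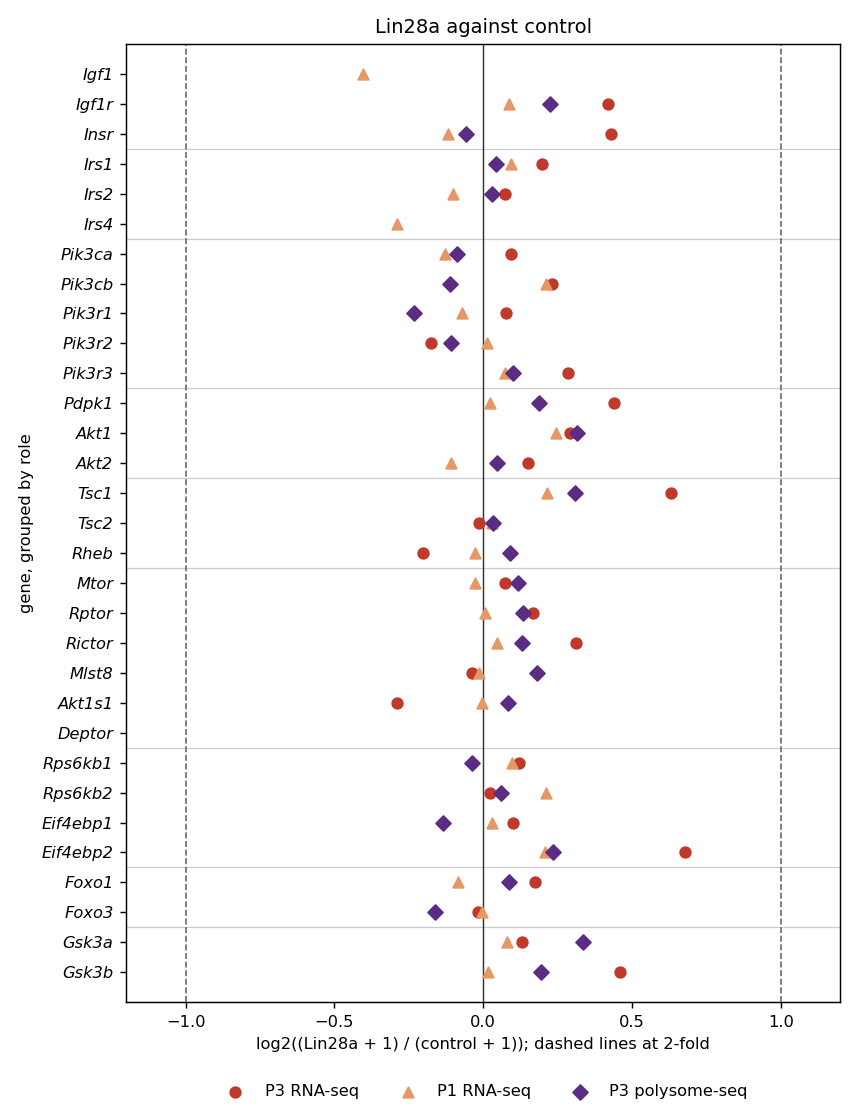
Log2 ratio of Lin28a to control for each member, with circles for P3 RNA-seq, triangles for P1 RNA-seq and diamonds for P3 polysome-seq. No point reaches a 2-fold line, and Eif4ebp2 and Tsc1 at P3 lie farthest to the right.

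Some members are known let-7 targets, so let-7 was read from the small RNA libraries. Guide strands of let-7 and miR-98 carry the same seed, bases 2 to 8, which pairs with target RNAs. It is shown in capitals in 3 of the 9 guide strands counted here, taken from RefSeq on build GRCm38.p6.
mmu-let-7a-5p: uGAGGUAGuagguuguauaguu
mmu-let-7i-5p: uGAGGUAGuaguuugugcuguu
mmu-miR-98-5p: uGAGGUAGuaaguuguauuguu
All 9 share the seed GAGGUAG. Together they made up 2.97% of microRNA counts in Lin28a at P3 (253355 of 8542827, 95% exact binomial interval 2.95 to 2.98) and 4.51% at P1 (373937 of 8288819, 4.497 to 4.525). In control they made up 12.5% at P3 (1039228 of 8288085, 12.5 to 12.6) and 5.52% at P1 (349182 of 6322534, 5.51 to 5.54). The share in Lin28a was thus 0.237 times that of control at P3 and 0.817 times at P1. The 9 strands were uneven. At P3 let-7c-5p was at 0.509 times control and the other 8 lay between 0.0970 and 0.249 times. At P1 let-7c-5p and let-7e-5p were above control, at 1.09 and 1.06 times, and the other 7 lay between 0.550 and 0.843 times. In Lin28a let-7c-5p made up 1.85% of microRNA counts at P3 and 1.52% at P1, against 3.64% at P3 and 1.39% at P1 in control. These intervals cover counting error only, and reads of a microRNA with more than 1 locus may have entered repeatedly.

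The 6 members known from other studies as let-7 targets were Igf1r, Insr, Irs2, Akt2, Tsc1 and Rictor. At P3 all 6 were higher by any amount in Lin28a, with ratios from 0.07 for Irs2 to 0.63 for Tsc1 and a median of 0.37, against 48.5% and -0.01 for all genes. Most of the pathway went the same way, with 22 of 28 members, or 78.6%, higher and a median of 0.14, these 6 included. None was past 2-fold and Tsc1 alone was past 1.5-fold. At P1, where the let-7 shares were closer, 3 of 6 were higher, with a median of -0.03, against 56.7% of members and 48.4% of all genes. Rictor, the defining subunit of mTOR complex 2, was at 6.79 FPKM in Lin28a at P3 and 6.76 at P1, against 5.27 in control at P3 and 6.52 at P1. With passage in control, which uses the same P3 library, all 6 were lower (median -0.53), against 4 of 6 in Lin28a (median -0.26). The let-7 share at P3 was 2.27 times that at P1 in control and 0.657 times in Lin28a. Most of the 6 were thus lower in Lin28a too, where the let-7 share fell. Of all members 73.3% were lower in control and 55.2% in Lin28a, and of all genes 50.3% and 51.0%. Whether let-7 had a part in these ratios was not tested.

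In polysome RNA at P3 the pathway was close between Lin28a and control. Of 28 members measured none was past 2-fold, against 0.952% of all genes higher and 0.122% lower, and none was past 1.5-fold, against 3.69% higher and 1.51% lower. By any amount 20 were higher, or 71.4%, where 62.8% of 12289 genes were, and the median was 0.08, where that of all genes was 0.06. The highest was Gsk3a, at 26.1 RPKM in Lin28a and 20.5 in control (0.34). Akt1 followed, at 128 RPKM in Lin28a and 102 in control (0.31), and Tsc1, at 8.22 RPKM in Lin28a and 6.45 in control (0.31). The lowest were Pik3r1, at 38.4 RPKM in Lin28a and 45.4 in control (-0.23), Foxo3 (-0.16) and Eif4ebp1 (-0.14). Akt1 had nearly the same ratio in all 3 comparisons of Lin28a with control (0.29 at P3, 0.24 at P1, 0.31 in polysomes). Of the 6 let-7 targets 5 were higher (median 0.09). Neuronal markers summed to 181 RPKM in Lin28a polysomes and 117 in control polysomes, and those of the oligodendrocyte lineage to 192 and 282. Igfbpl1 (1.23), of 11 genes of its list, was the 1 gene of the 8 other lists past 2-fold.

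The polysome ratio less the RNA-seq ratio was computed for 25 members at 5 or more in all 4 P3 libraries. It was above 0 for 9 of them, or 36.0%, with a median of -0.14, against 60.7% and 0.07 for 7817 genes. None was past 2-fold, against 0.358% of all genes higher and 0.0512% lower, and none past 1.5-fold, against 4.46% higher and 1.60% lower. The lowest were Insr (-0.48), Eif4ebp2 (-0.44) and Pik3r1 (-0.31). Insr was at 13.1 RPKM in Lin28a polysomes and 13.7 in control polysomes, while its RNA-seq level was 14.0 FPKM in Lin28a and 10.1 in control. Eif4ebp2 was at 67.8 RPKM in Lin28a polysomes and 57.4 in control polysomes. The highest were Akt1s1 (0.37), Rheb (0.29) and Mlst8 (0.22). This measure contains the P3 RNA-seq ratio with its sign turned, so members high there tend to be low here. Of the 6 let-7 targets 5 were measured, all 5 were below 0 and their median was -0.18.

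Within families the paralog shares of the 2 assays are given side by side, since the assays were counted in different ways. Irs2 made up 60.0% of Irs RPKM in Lin28a polysomes and 60.3% in control polysomes, and 45.0% of Irs FPKM in Lin28a and 47.9% in control at P3. Eif4ebp1 made up 37.5% of the 4E-BP sum in Lin28a polysomes and 43.8% in control polysomes, and 24.4% and 32.6% in RNA-seq of Lin28a and control at P3. For Irs2 the shares of Lin28a and control were closer to each other within an assay than to those of the other assay, while for Eif4ebp1 the control RNA-seq share lay nearer to that of Lin28a polysomes.

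**Figure D5:**
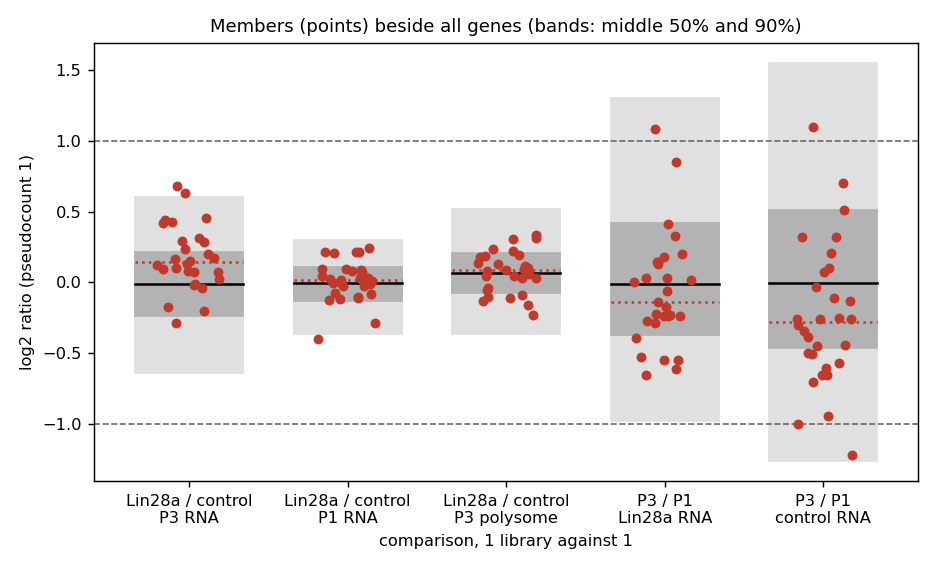
Log2 ratios of the members (points, dotted median) in 5 comparisons of 1 library against 1, beside the middle 50% and 90% of all genes (dark and light bands, black median). The member median lies above that of all genes for Lin28a at P3 RNA and below it for both passage comparisons, and nearly all points fall inside the light bands.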

How the data were processed

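Gene levels were deposited by the authors as 1 value per RefSeq gene. The submitters' processing notes name Cufflinks 2.1.1, TopHat2 2.0.6, Bowtie 1.0.0 and build mm9, without the step each served. The deposited RNA-seq values are read as FPKM from the named tools, and the deposited polysome values as RPKM from their steps of whole reads, since the headers name no unit. Small RNA reads on mature microRNAs were deposited as raw counts, per the file headers, and hairpin counts were not used. The labels call the gene libraries poly(A)-selected, while the kit is one for total RNA, and the labels do not say which gradient fractions were sequenced. Libraries were grouped by title, and 0 columns belonged to other samples.

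Log2 ratios used a pseudocount of 1 and genes at 1 or more in 1 of 2 libraries, or at 5 or more in all 4 for the polysome to RNA ratio. Alternatives changed the pseudocount, filter, centring and fold. With 1 library per group there was no test, and the ratio code was checked on simulated data. The members and lists were chosen with earlier results of these data known. Members past 2-fold, the 3 highest and lowest of a comparison and the let-7 targets are named with values in each library or comparison, and up to 2 extreme genes per other list. Other genes named were chosen after their values were seen. Software was matplotlib 3.10.9, scipy 1.17.1, pandas 2.3.3, numpy 2.4.6 and Python 3.11.15.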

Additional observations from a re-analysis of the deposited data

Results flagged for a closer look

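For 3 members the ratio of P3 to P1 had opposite signs in the 2 cultures, with a size of at least 0.1 in each, which holds for 10.3% of 29 members and 4.52% of 12723 genes. Insr was at 0.41 in the Lin28a culture and -0.13 in control, Gsk3b at 0.18 and -0.26, and Foxo1 at 0.15 and -0.11. The ratio of Lin28a to control had opposite signs at the 2 passages for Insr, with 0.43 at P3 and -0.12 at P1, and for Akt2, with 0.15 at P3 and -0.11 at P1. These differences were not tested, since each group was 1 library, and all but the ratio of 0.43 and 0.41 for Insr are below 0.3 in size.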

How the results depend on the processing

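Medians of the members moved by less than 0.1 under every alternative in each of the 6 comparisons. That limit is larger than some of the medians. In polysome RNA the member median was 0.08 and that of all genes 0.06, so the member median there depends on the centring. Counts past 2-fold changed as follows. With passage in control, 2 lower members became 0 when genes had to reach 5 FPKM in 1 library, since Irs4 and Igf1 are below it, and 1 with the median of all genes set to 0. With passage in Lin28a, 0 lower became 1 with a pseudocount of 0.1, namely Irs4 at -1.15, and in control 2 lower became 3, since Tsc1 moved to -1.09, with Irs4 at -2.50 and Igf1 at -2.27. At a fold of 1.5 the counts were 2 higher and 7 lower with passage in control, 2 higher and 2 lower with passage in Lin28a, and 2 higher for Lin28a at P3. No paired analysis was possible because each group holds 1 library. Ratios of Igf1, Irs4 and Deptor are limited by their low levels, and no difference has a replicate check.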
